A study of Arabidopsis thaliana with 15 samples.

Results

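The HIPP genes of Arabidopsis thaliana encode the heavy metal-associated isoprenylated plant proteins. Members were taken as every row of the deposited count table whose gene symbol is HIPP followed by a number, on chromosomes 1 to 5, which gave 35 of 33024 genes. Those with at least 10 counts in 3 or more libraries are described here, and 24 of the 35 met that minimum. The measurement was poly-A RNA sequencing of leaves from Columbia-0 plants 21 days after germination, grown in a greenhouse under long days, with 15 libraries of 5 genotypes and 3 libraries each. The genotypes were wild type (Col), the topp septuple mutant topp-7m, the single mutants pp1r3-2 and topp4-1, and their double mutant pp1r3-2 topp4-1. TOPP genes encode catalytic subunits of type 1 protein phosphatase, and PP1R3 is, by the title of the series, a subunit that regulates them. The topp4-1 allele is known as a missense mutation with dominant negative action, so its transcript level does not check the genotype. The labels do not name the genes mutated in topp-7m, and they leave unsaid whether replicate libraries are separate plants. The p-values therefore measure the spread between these samples, which may be technical.

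A HIPP protein carries one or more heavy metal-associated domains, small folds in which a pair of cysteines separated by any 2 residues (CxxC) can bind a metal ion. A further cysteine, 4 residues from the end of the chain counting itself, is the site where a farnesyl or geranylgeranyl lipid is attached, which brings the protein to membranes. Members of the family have been linked to cadmium tolerance, to drought and cold responses in the leaf vasculature, to infection by nematodes and to the control of cytokinin breakdown.

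The coding sequence around the metal-binding motif is shown for 8 members to set genes with the full motif beside tandem genes that lack it. Each window holds 10 codons, read 5′ to 3′ on the coding strand from the TAIR10.1 genome, with the codons at the positions of the motif's first and last cysteine in capitals. HIPP22, HIPP25, HIPP26, HIPP31 and HIPP32 have cysteine codons (TGT or TGC) at both positions. HIPP12, HIPP13 and HIPP14 have no CxxC anywhere in their coding sequence, and their windows were placed by aligning the protein with that of HIPP22.
HIPP22 (chr1:8139414-8139443, + strand): aagatcgacTGTgacggaTGCgaacgcaaa
HIPP25 (chr4:16686213-16686242, - strand): ttgatagatTGTgaaggaTGCgagaggaaa
HIPP26 (chr4:18035328-18035357, + strand): aaaatggacTGCgaaggtTGCgagcggaaa
HIPP31 (chr3:18153120-18153149, - strand): aacttggatTGTgaaggaTGTgcttctaag
HIPP32 (chr3:1854515-1854544, - strand): aacatacacTGTgatggcTGTaagcagaaa
HIPP12 (chr5:21382703-21382732, + strand): gatgttcatTGTgaaaaaACCaaacaaaaa
HIPP13 (chr5:21384312-21384341, + strand): agcattcacGAGgaaagaATCaggaagaaa
HIPP14 (chr5:21387102-21387131, + strand): agtattcacGAGgagagaACCaggaagaaa

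All 35 members have a cysteine codon as the first of the last 4 codons before the stop. The last 4 codons and the stop codon are shown for a gene with the motif and for one without it, with the cysteine codon in capitals.
HIPP22 (chr1:8140031-8140045, + strand): TGCaccgttatgtga
HIPP14 (chr5:21387526-21387540, + strand): TGTgtgattatgtga

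Across the 35 members, 8 had no CxxC, 19 had 1 and 8 had 2. The table's annotation gave 28 of them the domain PF00403, and the encoded proteins ran from 114 to 587 residues. Most similar in protein were HIPP32 and HIPP33 (80.3% identical over the shorter chain), HIPP13 and HIPP14 (78.6%), HIPP20 and HIPP22 (75.7%) and HIPP25 and HIPP26 (74.5%). In coding sequence HIPP13 and HIPP14 were 86.9% identical and HIPP32 and HIPP33 were 84.0% identical. The treatment of reads matching more than 1 gene is not given in the sources used here, so how counts divide within these pairs is uncertain. HIPP02, HIPP16, HIPP21 and HIPP27 overlap another annotated gene, and without a stated strand their reads cannot be told apart from those of the neighbour.

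Total counts ran from 17962200 to 20756997 per library. The TOPP4 transcript had 30.8 ± 1.85 CPM in wild type (SD, n = 3) and 5.44 ± 0.344 CPM in topp-7m, and it was present in topp4-1 at 36.8 ± 1.91 CPM. No gene of the table carries the symbol PP1R3, so that target was not checked. Replicate 3 of the double mutant stood apart on the second principal component of all tested genes, at -62.7 against -6.3 and -4.6 in the others of its genotype. Replicate 3 was also the lowest in pp1r3-2 (-33.8 against -16.1 and -9.9) and in topp-7m (-18.8 against 15.6 and 3.5). It was the highest in wild type (49.5 against 11.8 and 38.3) and lay between the others in topp4-1. Wild-type replicate 3 had 0.0813% of its counts on chloroplast genes against at most 0.0208% elsewhere.

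Leaf markers were abundant in all libraries. The summed level of 4 mesophyll markers, among them RBCS1A and RCA of carbon fixation, was lowest in topp4-1 at 10500 to 12200 CPM, where 3 of the 4 fell. It was 15500 to 20500 CPM in the wild-type libraries and 15400 to 20400 CPM in those of topp-7m. The libraries of pp1r3-2 had 23500 to 26300 CPM and those of the double mutant 23300 to 29000 CPM. The like sums of wild type and topp-7m hide opposite moves, with 1 of the 4 markers called higher and 1 lower in topp-7m. LHCB2.1 had 833 ± 222 CPM in wild type and 1870 ± 323 in topp-7m, and CA1 had 1290 ± 323 and 738 ± 177 CPM. Of 5 root markers PLT1, PLT2 and RHD6 were at 0 in every library, IRT1 had at most 2 counts and PHT1;1, a phosphate transporter, had 7 to 61 counts, so that the list summed to between 0.375 and 3.29 CPM. In these bulk samples fewer cells of a type and less RNA per cell cannot be told apart.

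CPM is the count scaled to the size of the library, and levels are compared between genes as CPM per kilobase of the table's gene length (CPM per kb). HIPP14 was highest at 140 ± 7.09 CPM per kb (SD, n = 3), a level above 96.3% of the genes tested, and HIPP13 followed at 108 ± 10.8. This tandem pair made up 25.3% and 19.5% of the summed level of the family. HIPP34 (50.1 ± 7.03), HIPP06 (47.2 ± 7.29) and HIPP07 (40.1 ± 6.76) came next, and the difference between neighbours in this order was smaller than the larger of their SDs. At the low end HIPP22 had 1.44 ± 0.549, HIPP31 1.22 ± 0.388, HIPP30 1.20 ± 0.258 and HIPP27 0.207 ± 0.193 CPM per kb. HIPP25, HIPP22, HIPP31 and HIPP30 lay within 1 SD of HIPP25 from one another.

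**Figure D1:**
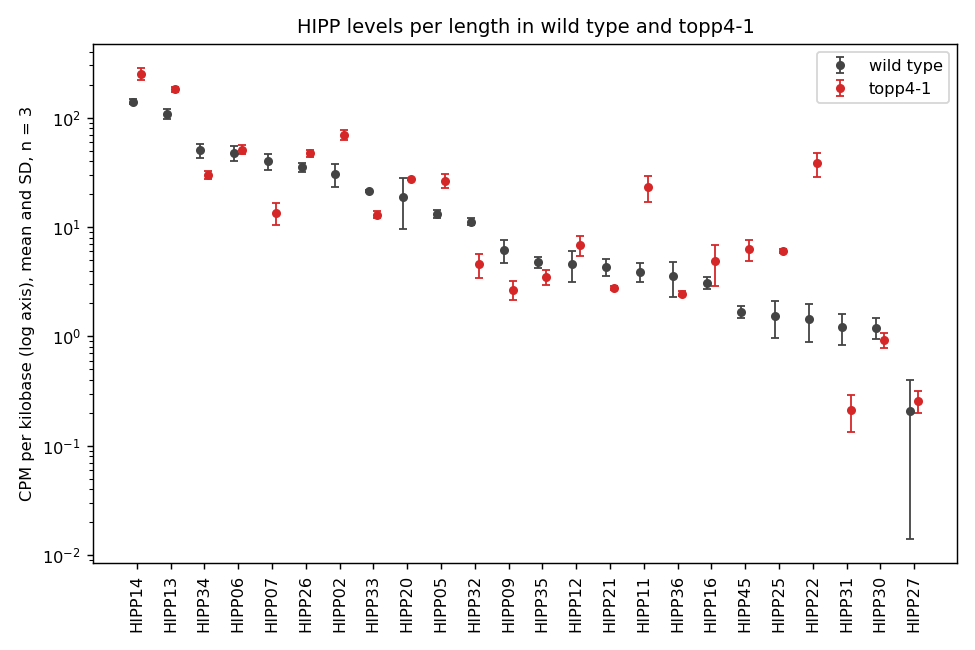
Mean level per length of the 24 described HIPP genes in wild type (grey) and topp4-1 (red), in CPM per kilobase on a log axis, with bars for the SD of 3 libraries. HIPP14 and HIPP13 lead in both genotypes, and HIPP22 stands at 1.44 CPM per kb in wild type and 38.2 in topp4-1.

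Just inside the count minimum was HIPP27, known as a susceptibility gene for cyst nematodes, with at least 10 counts in 4 libraries. Just outside was HIPP24, which reached 10 counts in 1 library of topp4-1 and had 3 and 7 in the other two, against 0, 0 and 1 in wild type. Of the 11 members below the minimum, HIPP08, HIPP18, HIPP42 and HIPP44 had no count in any library. A count of 0 allows a level of up to 0.137 to 0.169 CPM, depending on the library (3 counts, counting error only). HIPP01, HIPP04, HIPP17, HIPP19, HIPP23, HIPP24 and HIPP43 had between 1 and 24 counts over all 15 libraries together.

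Set against wild type, topp4-1 shows the family in leaves that carry the TOPP4 allele alone. Of the 24 members tested, 9 rose and 7 fell at an adjusted p under 0.05, while 8 did not pass. Over all 20037 genes tested, 27% were called higher and 26.5% lower, against 37.5% and 29.2% of the members. Without wild-type replicate 3 the counts were also 9 and 7, but of the lower calls HIPP21 was lost (adjusted p = 0.0601) and HIPP36 gained. The median member differed by 0.36 on the log2 scale, and the median of all genes by 0.01. The median absolute difference was 0.74 for the members and 0.44 for all genes. In 9 members all topp4-1 libraries lay above all wild-type libraries and in 9 all lay below, where 33.1% and 31.4% of all genes did so. The summed level of the 24 members was 815 ± 69.3 CPM per kb in topp4-1 and 554 ± 20.6 in wild type (SD, n = 3), and it was 582 to 594 in the other genotypes. Most of this rise came from HIPP14 (140 to 253 CPM per kb) and HIPP13 (108 to 182), the tandem pair whose division of reads is uncertain. In CPM the sum was 919 ± 58.3 in topp4-1 and 782 ± 30.4 in wild type.

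**Figure D2:**
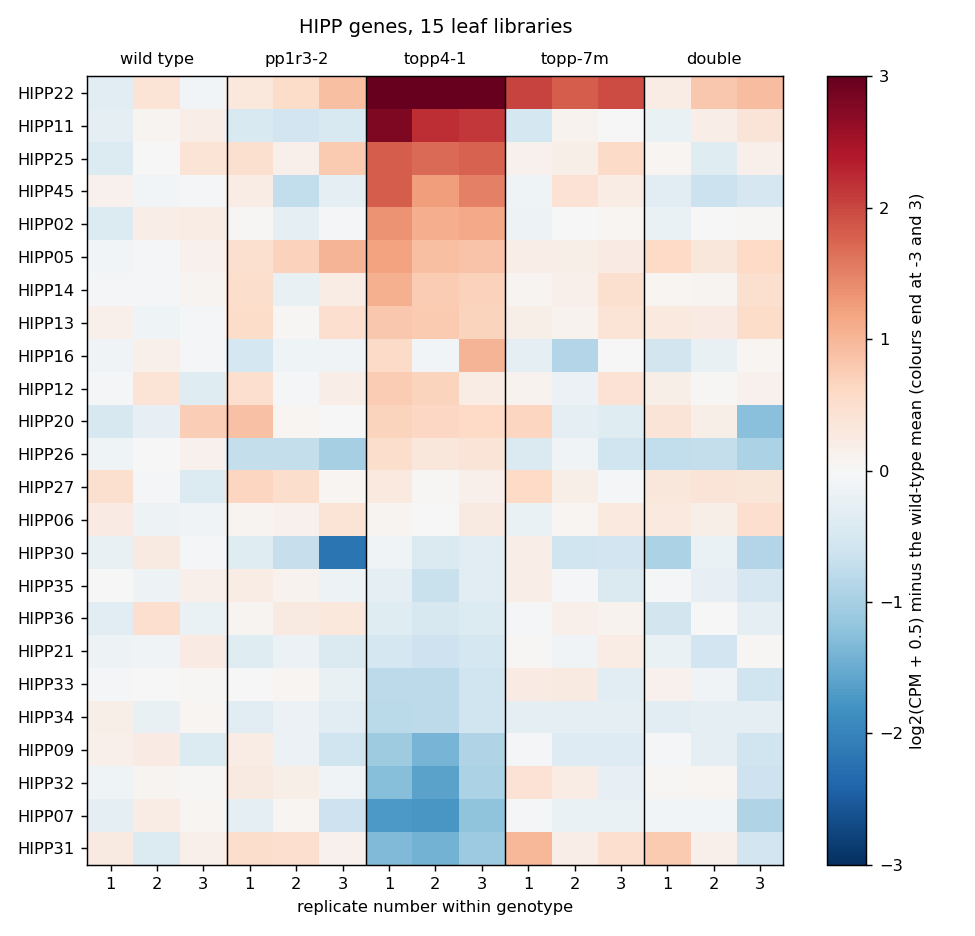
Each cell is log2(CPM + 0.5) of a HIPP gene in 1 library minus the gene's wild-type mean, with genes ordered by their change in topp4-1 and the libraries of each genotype side by side. The topp4-1 columns hold the strongest red, and HIPP22 is also red in the 3 topp-7m libraries. The deepest blue is that of HIPP30 in a pp1r3-2 library with 2 counts.

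Proteins closest to HIPP22, with a single metal-binding domain and under 200 residues, include those studied in cadmium tolerance. Plants lacking HIPP20, HIPP21 and HIPP22 together are known to be more sensitive to cadmium. HIPP22 (AT1G22990, chromosome 1, 8139114 to 8140233) had 0.75, 1.55 and 0.957 CPM in the wild-type libraries and 37.3, 24.3 and 24.8 CPM in topp4-1. Its level was 1.42, 1.78 and 2.38 CPM in pp1r3-2, 5.77, 4.94 and 5.5 CPM in topp-7m and 1.31, 2.22 and 2.43 CPM in the double mutant. The topp4-1 libraries stood far above all others, those of topp-7m formed a middle group, and the double mutant overlapped wild type. The rise in topp4-1 was 4.72 ± 0.29 on the log2 scale (SE, adjusted p = 8.87e-09), which was the largest change of the family.

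HIPP20, the member nearest in sequence to HIPP22, had 12.8 to 30.2 CPM in wild type and 27.7 to 29 CPM in topp4-1, a difference of 0.54 ± 0.44 (adjusted p = 0.324) that was not called. HIPP21, the other gene of that trio, went the opposite way to HIPP22. It fell by 0.63 on the log2 scale (SE 0.19, adjusted p = 0.0122), from 6.21 ± 1.07 to 4.02 ± 0.172 CPM, which missed the threshold (adjusted p = 0.0601) when wild-type replicate 3 was left out.

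HIPP25 (AT4G35060, chromosome 4, 16685612 to 16686818) had 1.13, 1.65 and 2.39 CPM in wild type and 7.07, 6.55 and 6.81 CPM in topp4-1. In pp1r3-2 it had 2.53, 1.9 and 3.23 CPM, in topp-7m 1.87, 1.94 and 2.72 CPM and in the double mutant 1.74, 1.19 and 1.92 CPM. All 3 topp4-1 libraries were above the other 12, which overlapped one another. The change in topp4-1 was 1.98 ± 0.28 (adjusted p = 2.98e-05).

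HIPP26, the closest relative of HIPP25, encodes a protein known to bind the zinc finger homeodomain factor ATHB29 and the acyl-CoA binding protein ACBP2. It had 36.7, 40.7 and 44.3 CPM in wild type, 24.6, 24.4 and 20 CPM in pp1r3-2, 58.2, 51.2 and 52.9 CPM in topp4-1, 29.9, 37.6 and 26.8 CPM in topp-7m and 24.2, 24.6 and 20.8 CPM in the double mutant. Both genotypes with pp1r3-2 lay below all wild-type libraries, and topp4-1 lay above them. The rise in topp4-1 of 0.42 ± 0.12 (adjusted p = 0.00925) was not called without wild-type replicate 1 (adjusted p = 0.0642) or topp4-1 replicate 1 (adjusted p = 0.0586).

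HIPP45 (AT3G56891, chromosome 3, 21064088 to 21064986), also short and with a single motif, had 1.34, 1.08 and 1.12 CPM in wild type and 5.39, 3.51 and 4.25 CPM in topp4-1. It had 1.47, 0.502 and 0.901 CPM in pp1r3-2 and 1.04, 1.78 and 1.47 CPM in topp-7m, which overlapped wild type, and 0.818, 0.567 and 0.678 CPM in the double mutant, which lay below it. The rise in topp4-1 was 1.89 ± 0.33 (adjusted p = 0.000201).

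HIPP02 (AT5G26690, chromosome 5, 9310797 to 9311572) encodes the shortest protein of the family. It had 13.7, 21.2 and 21.5 CPM in wild type, 19, 14.9 and 18 in pp1r3-2, 47.5, 39.6 and 40.9 in topp4-1, 16.4, 18.2 and 19.3 in topp-7m and 16, 18.4 and 18.9 in the double mutant. The 12 libraries of the other genotypes lay between 13.7 and 21.5 CPM, below all of topp4-1. The rise was 1.18 ± 0.15 (adjusted p = 9.2e-06).

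HIPP31 (AT3G48970, chromosome 3, 18152236 to 18153643) had 1.61, 0.826 and 1.43 CPM in wild type and 0.203, 0.155 and 0.32 CPM in topp4-1, from 4, 3 and 7 counts. In pp1r3-2 it had 2.02, 2.01 and 1.43 CPM, in topp-7m 3.02, 1.5 and 1.99 CPM and in the double mutant 2.51, 1.44 and 0.678 CPM. It was the lowest of all libraries in each topp4-1 sample, and it fell by 2.46 on the log2 scale (SE 0.53, adjusted p = 0.00116), the strongest decrease of the family.

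HIPP11, HIPP12, HIPP13 and HIPP14 stand in a row on chromosome 5, from 21380164 to 21387714, and none of the 4 has a CxxC. Of these tandem genes 3 rose in topp4-1 and 1 was not called. HIPP11 (AT5G52730, 21380164 to 21381069) had 2.36, 3.15 and 3.51 CPM in wild type and 23.5, 15.7 and 14.5 CPM in topp4-1. It had 2.02, 1.84 and 2.01 CPM in pp1r3-2, 1.92, 3.22 and 2.93 in topp-7m and 2.51, 3.51 and 4.07 in the double mutant. The topp4-1 libraries were above the 12 others, a rise of 2.57 ± 0.24 (adjusted p = 5.65e-07).

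HIPP13 (AT5G52750, 21383979 to 21385015) and HIPP14 (AT5G52760, 21386727 to 21387714), the most abundant pair of the family, rose less. HIPP14 had 123, 121 and 133 CPM in wild type and 262, 214 and 205 CPM in topp4-1, a change of 0.85 ± 0.17 (adjusted p = 0.000798). HIPP13 had 113, 93.2 and 99.4 CPM against 179, 174 and 162 CPM, a change of 0.75 ± 0.14 (adjusted p = 0.000274). In neither gene did the groups overlap. HIPP12 had 2.23 to 4.18 CPM in wild type and 3.61 to 5.44 in topp4-1, and its difference of 0.59 ± 0.26 was not called (adjusted p = 0.0653).

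Proteins with a pair of CxxC motifs are encoded by HIPP05, HIPP06, HIPP07 and HIPP09 among the described genes. HIPP05, HIPP06 and HIPP07 have been reported to bind the cytokinin oxidase CKX1. In topp4-1, HIPP05 rose, HIPP07 and HIPP09 fell and HIPP06 was not called.

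HIPP05 (AT2G36950, chromosome 2, 15514923 to 15517002) had 21.1, 21.6 and 24.5 CPM in wild type, 31.3, 36.6 and 45.7 in pp1r3-2, 52.5, 42.3 and 40.8 in topp4-1, 25.8, 25.1 and 26.7 in topp-7m and 34.3, 28.3 and 34.2 in the double mutant. Every mutant library was above every wild-type library. The change was 1.01 ± 0.13 in topp4-1 (adjusted p = 1.38e-05).

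HIPP07 (AT5G63530, chromosome 5, 25432890 to 25435834) had 58.4, 82.2 and 72.8 CPM in wild type, 57.6, 73 and 45.4 in pp1r3-2, 21.2, 20.6 and 30.2 in topp4-1, 67.7, 61.8 and 61.3 in topp-7m and 66.8, 66.7 and 37.2 in the double mutant. The topp4-1 libraries were below all others, with a decrease of 1.57 on the log2 scale (SE 0.23, adjusted p = 8.02e-05). HIPP09 (AT5G24580, chromosome 5, 8410184 to 8412512) had 11.4, 12.2 and 7.6 CPM in wild type and 4.63, 3.56 and 5.26 CPM in topp4-1, and it fell by 1.21 (SE 0.24, adjusted p = 0.000564). It had 11.9, 8.98 and 6.62 CPM in pp1r3-2, 9.77, 7.67 and 7.65 CPM in topp-7m and 9.81, 8.35 and 6.55 CPM in the double mutant, which overlapped wild type and not topp4-1.

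HIPP06 had 79.6 to 105 CPM in wild type and 88.8 to 106 CPM in topp4-1. The difference of 0.11 ± 0.14 (adjusted p = 0.516) was small beside those of its relatives.

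Long proteins with a single motif are encoded by HIPP32 to HIPP36, of which 3 fell in topp4-1 and 2 were not called. HIPP32 (AT3G06130, chromosome 3, 1852808 to 1855197) had 21.3, 24.5 and 24 CPM in wild type, 28.2, 26.2 and 21.4 in pp1r3-2, 9.3, 7.28 and 11.8 in topp4-1, 31.7, 27.1 and 19.6 in topp-7m and 23.9, 24 and 14.8 in the double mutant. The topp4-1 libraries were below all the rest, and replicate 3 of the double mutant was the next lowest. The change in topp4-1 was -1.29 ± 0.22 (adjusted p = 0.000174).

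HIPP33, its nearest relative, went from 57 ± 1.63 to 34.5 ± 2.71 CPM (-0.72 ± 0.17, adjusted p = 0.00271). HIPP34, the most abundant of these genes, went from 167 ± 23.4 to 100 ± 7.62 CPM (-0.74 ± 0.1, adjusted p = 1.53e-05). HIPP35 and HIPP36 had differences of -0.45 ± 0.2 and -0.52 ± 0.23 that missed the threshold (adjusted p = 0.0689 and 0.0649), with topp4-1 libraries below wild type in both.

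No described member encodes a protein longer than 185 and shorter than 319 residues, so these genes split into a short and a long class at that gap. Of the 15 genes for proteins under 200 residues, 8 rose and 2 fell in topp4-1, with a median of 0.66 on the log2 scale. Of the 9 genes for longer proteins, 1 rose (HIPP05) and 5 fell, with a median of -0.72. By motif, 3 of 5 genes without a CxxC rose and none fell, 5 of 15 with 1 motif rose and 5 fell, and of 4 with a pair of motifs 1 rose and 2 fell. Over all genes 27% rose and 26.5% fell. Without wild-type replicate 3 the lower calls were 1 in the short class and 6 in the long class, with HIPP21 lost and HIPP36 gained. Members that are neighbours or close relatives are not independent, and these counts are a description without a test.

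**Figure D3:**
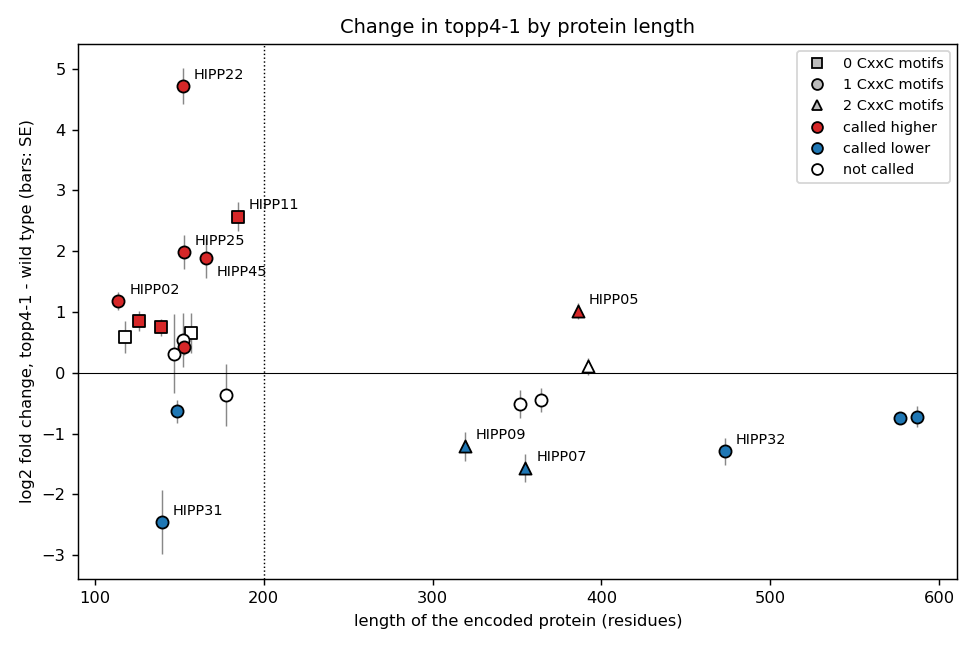
Points are the 24 described HIPP genes, with the length of the encoded protein on the horizontal axis and the log2 fold change of topp4-1 against wild type on the vertical axis (bars: SE). Marker shape gives the number of CxxC motifs and fill the call. The short class holds most of the genes called higher (8 of 9), and 5 of the 7 called lower are in the long class.

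The double mutant was compared with topp4-1 to ask how the added pp1r3-2 mutation changes the levels seen with the topp4-1 allele. In the double mutant 6 members were higher and 10 lower than in topp4-1, where 21.4% of all genes were called higher and 21.9% lower. HIPP21 was not called (0.37 ± 0.19, adjusted p = 0.134). Without double mutant replicate 3 the counts were again 6 and 10. This comparison and that of topp4-1 with wild type use the same topp4-1 libraries, and the levels of the genes are given side by side.

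HIPP22 returned from 28.8 ± 7.37 CPM in topp4-1 to 1.98 ± 0.595 CPM in the double mutant (-3.86 ± 0.27, adjusted p = 4.95e-08). HIPP45 had 4.38 ± 0.947 and 0.687 ± 0.126 CPM (-2.66 ± 0.35), HIPP11 17.9 ± 4.87 and 3.36 ± 0.789 CPM (-2.41 ± 0.24) and HIPP25 6.81 ± 0.257 and 1.62 ± 0.383 CPM (-2.07 ± 0.28). In each of these the groups did not overlap. In the other direction HIPP31 had 0.226 ± 0.0849 CPM in topp4-1 and 1.54 ± 0.919 in the double mutant (2.72 ± 0.53, adjusted p = 0.000633), HIPP07 24 ± 5.37 and 56.9 ± 17.1 CPM (1.24 ± 0.23) and HIPP32 9.47 ± 2.29 and 20.9 ± 5.26 CPM (1.14 ± 0.22).

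Smaller differences in this comparison were less firm. The calls of HIPP13 (-0.39 ± 0.14, adjusted p = 0.0306) and HIPP33 (0.56 ± 0.17, adjusted p = 0.0175) were each lost without replicate 1 or 2 of topp4-1 or of the double mutant. HIPP16, called only here (-0.93 ± 0.33, adjusted p = 0.0335), had overlapping groups, and it lost its call without any of 4 single libraries or when the compared genotypes were fitted alone. HIPP05 (-0.49 ± 0.13) lost its call without topp4-1 replicate 1 (adjusted p = 0.0561).

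**Figure D4:**
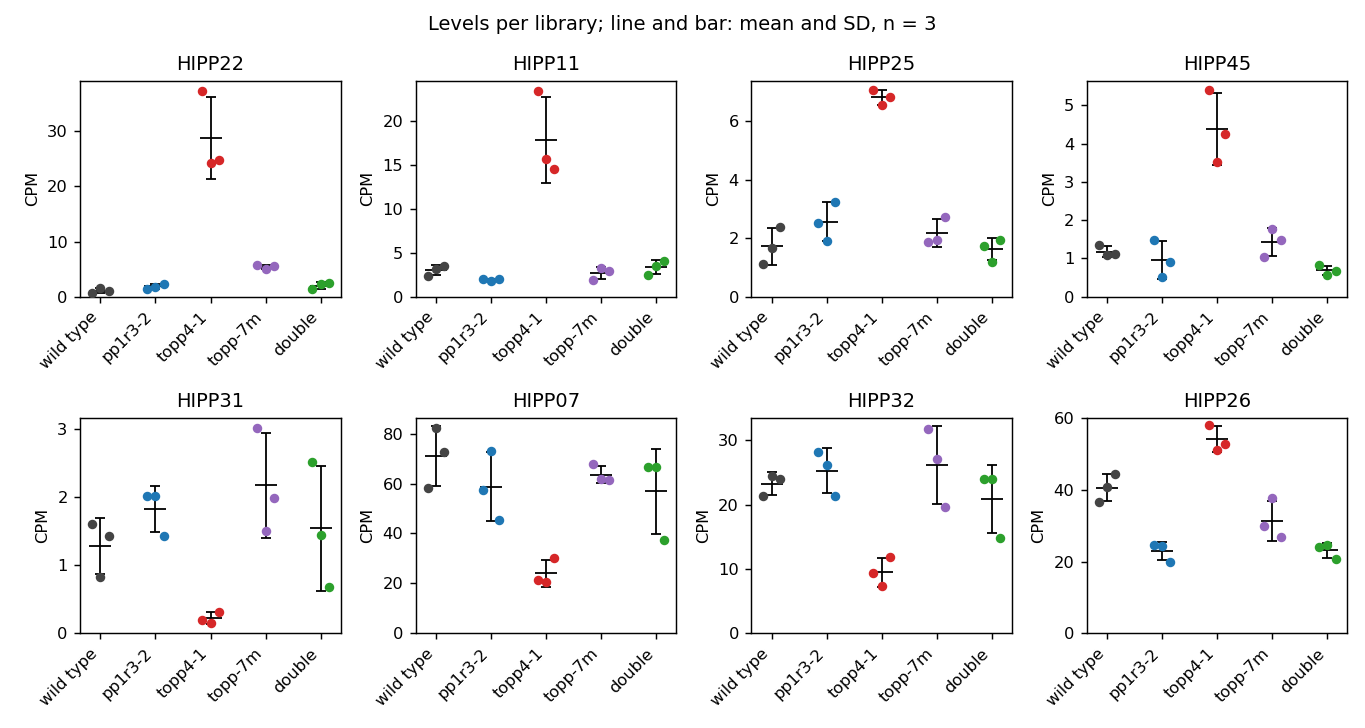
CPM in every library for 8 HIPP genes, with points for libraries, a line for the mean and bars for the SD of 3 libraries per genotype, on axes that start at 0. HIPP22, HIPP11, HIPP25 and HIPP45 are high in topp4-1 alone or mainly there, HIPP31, HIPP07 and HIPP32 are low there, and HIPP26 is low in both genotypes that carry pp1r3-2.

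Against wild type the double mutant had 1 member higher and 2 lower, and 7.66% and 5.47% of all genes were called in these directions. The 3 were HIPP05 (0.53 ± 0.13, adjusted p = 0.0166), HIPP26 (-0.8 ± 0.12, adjusted p = 0.000671) and HIPP34 (-0.31 ± 0.1, adjusted p = 0.0466). HIPP05 lost its call without double mutant replicate 3 (adjusted p = 0.0612) or wild-type replicate 2 (adjusted p = 0.0659). HIPP34 lost it in 14 of the 21 alternative fits. Without double mutant replicate 3 the calls were 0 higher and 1 lower, and without wild-type replicate 3 they were 1 and 1.

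**Figure D5:**
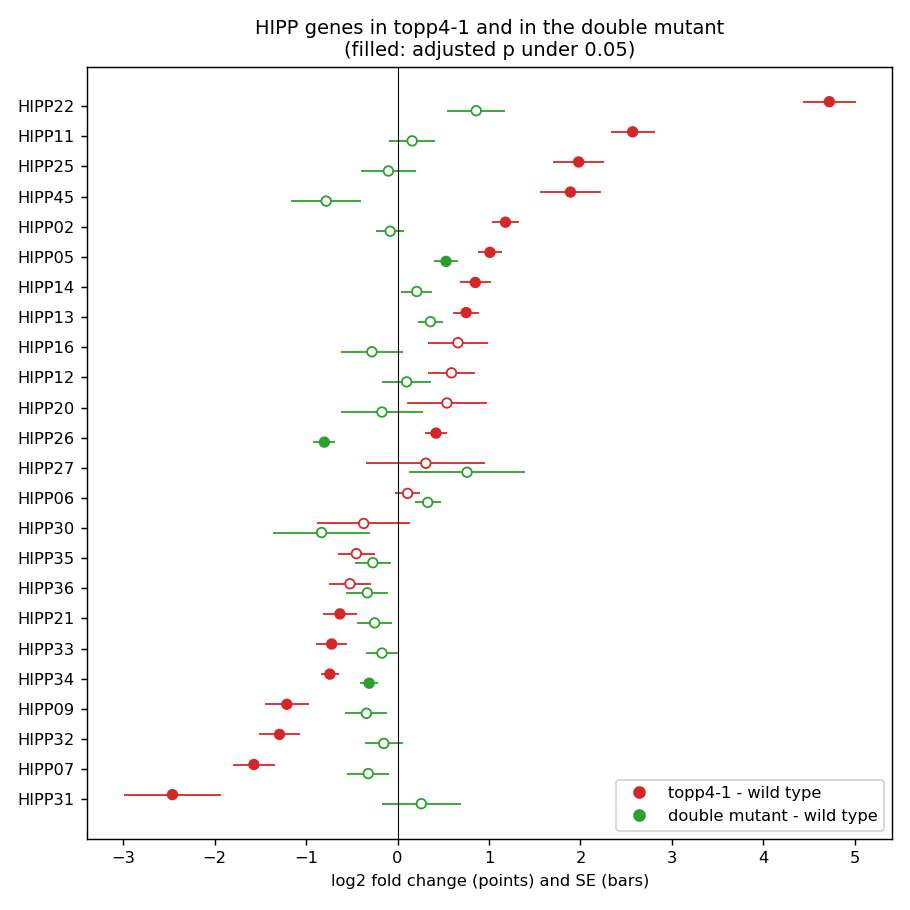
Log2 fold changes against wild type in topp4-1 (red) and in the double mutant (green) for the 24 HIPP genes, with bars for the SE and filled points for an adjusted p under 0.05. The red points spread from -2.46 to 4.72 and the green points from -0.83 to 0.86, and HIPP26 is called on opposite sides of 0.

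The interaction subtracts the topp4-1 effect seen in wild type from that seen with pp1r3-2, and it was called in 14 members, 8 lower and 6 higher, where 19.3% and 19% of all genes were called. The largest values were -4.62 ± 0.41 for HIPP22 (adjusted p = 9.21e-07), -2.64 ± 0.41 for HIPP25, -2.37 ± 0.51 for HIPP45 and 2.22 ± 0.68 for HIPP31. Without wild-type replicate 3 there were 5 higher and 8 lower, and without double mutant replicate 3 there were 6 and 8. HIPP26 was not called (-0.4 ± 0.18, adjusted p = 0.0843), nor was HIPP33 (0.6 ± 0.24, adjusted p = 0.0642). HIPP31 lost its call without double mutant replicate 1 (1.69, adjusted p = 0.0591). HIPP09 (1.06 ± 0.33) lost it without that library (adjusted p = 0.0564), wild-type replicate 2 (0.0556) or topp4-1 replicate 2 (0.0584), and HIPP21 (0.73 ± 0.27, adjusted p = 0.0439) lost it in 12 of the 21 alternative fits.

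In pp1r3-2 alone 1 member rose and 2 fell against wild type, where 10.9% of all genes were called higher and 8.33% lower. HIPP05 rose by 0.76 ± 0.13 (adjusted p = 0.00105), from 22.4 ± 1.84 to 37.9 ± 7.3 CPM. HIPP26 fell by 0.82 on the log2 scale (SE 0.12, adjusted p = 0.000368), from 40.6 ± 3.78 to 23 ± 2.61 CPM, and its levels in pp1r3-2 and the double mutant overlapped. HIPP34 was lower by -0.29 ± 0.1 (adjusted p = 0.0498), with groups that overlapped, and it lost its call in 15 of the 21 alternative fits, among them the one without wild-type replicate 3, which left 1 lower call.

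Between the double mutant and pp1r3-2 no member was called by edgeR, and 0% of all genes were called higher and 0.0349% lower. At an unadjusted p under 0.05 there were 3 members of 24, against 6.87% of all genes, and DESeq2 also called none of the members. Differences ran from -0.66 (HIPP25) to 0.77 (HIPP11).

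The topp-7m septuple mutant had 1 member called higher than wild type and 0 lower, where 6.18% and 5.46% of all genes were called. HIPP22 rose by 2.31 ± 0.29 (adjusted p = 0.000123), to 5.4 ± 0.421 CPM from 1.08 ± 0.414 CPM, with no overlap. The other 23 members differed by between -0.43 and 0.75. Lower calls, 0 by edgeR, numbered 2 with DESeq2, and 3 of the 24 members had an unadjusted p under 0.05 in either direction, against 25.7% of all genes. Without wild-type replicate 3 the counts were also 1 and 0. HIPP11, HIPP25 and HIPP45, which rose with HIPP22 in topp4-1, had -0.16 ± 0.26, 0.34 ± 0.29 and 0.27 ± 0.35 in topp-7m.

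Promoters are shown for HIPP22 and HIPP14, which rose in topp4-1 from a low and a high wild-type level, and for HIPP31, which fell. Each is the 250 bases before the annotated start in TAIR10.1, on the strand of the gene. Capitals mark matches, on either strand, to any of 6 short motifs searched in these bases and the 50 that follow the start. The motifs were the G-box CACGTG, the core of the abscisic acid response element ACGTG (which lies within the G-box), the dehydration response element core GCCGAC, the W-box core TTGAC of WRKY factors, the copper response element core GTAC and the evening element core AAATATCT of the clock.
HIPP22 (chr1:8138864-8139113, + strand): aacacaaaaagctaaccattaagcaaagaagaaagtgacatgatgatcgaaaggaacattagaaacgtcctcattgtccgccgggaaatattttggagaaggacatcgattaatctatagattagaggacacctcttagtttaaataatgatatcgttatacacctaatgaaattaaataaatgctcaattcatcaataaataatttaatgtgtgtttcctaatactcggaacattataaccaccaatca
HIPP14 (chr5:21386477-21386726, + strand): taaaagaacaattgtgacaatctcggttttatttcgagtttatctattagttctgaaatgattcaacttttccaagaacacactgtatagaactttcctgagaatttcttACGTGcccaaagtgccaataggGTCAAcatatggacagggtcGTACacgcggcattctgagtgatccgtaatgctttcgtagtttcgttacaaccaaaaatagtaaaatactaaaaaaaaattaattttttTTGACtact
HIPP31 (chr3:18153644-18153893, - strand): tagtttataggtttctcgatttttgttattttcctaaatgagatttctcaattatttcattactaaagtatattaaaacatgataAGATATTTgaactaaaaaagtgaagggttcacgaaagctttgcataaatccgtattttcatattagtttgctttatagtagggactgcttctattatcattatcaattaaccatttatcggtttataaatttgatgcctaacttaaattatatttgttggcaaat

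None of the 6 motifs occurred in the HIPP22 window. Over the described members 15 of 24 windows held TTGAC, against 51.1% of the 19336 promoters of tested protein-coding genes, and 12 of 24 held GTAC, against 39.4%. ACGTG was found in 6 of 24 and 27.7%, CACGTG in 0 of 24 and 8.9%, AAATATCT in 2 of 24 and 6.1%, and GCCGAC in 1 of 24 and 3.7%. Among the 9 members that rose in topp4-1, 6 held TTGAC and 5 held GTAC, and among the 7 that fell 3 and 4 did. A match is a description of letters in the window and not of a bound factor.

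Lists of genes for the lipid anchor, metal handling, reported HIPP partners and cytokinin oxidases were read in the same fit. In that fit 27% of all genes rose and 26.5% fell in topp4-1. Against topp4-1, 21.4% of all genes were higher and 21.9% lower in the double mutant. A link between the listed genes and HIPP proteins was not tested. Of 8 genes for the attachment and turnover of the lipid anchor, 4 rose in topp4-1 and none fell. The shared alpha subunit PLP/FTA rose by 0.45 ± 0.09 (adjusted p = 0.000649), the farnesyltransferase beta subunit ERA1 by 0.38 ± 0.1 (adjusted p = 0.00395) and the farnesylcysteine lyase FCLY by 0.29 ± 0.1 (adjusted p = 0.02). Over the alternative fits this count ran from 2 to 4, with 2 when wild-type replicate 3 was left out. FCLY lost its call without that library (adjusted p = 0.0731), wild-type replicate 1 (0.0694) or topp4-1 replicate 2 (0.057) or 3 (0.0613). The double mutant had 3 of the 8 lower than topp4-1, and 1 to 4 over the alternative fits.

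Among 9 tested genes for metallothioneins, phytochelatin synthesis and vacuolar metal transport, 6 rose in topp4-1 and none fell, with a median of 0.58. MT2A, a metallothionein that binds copper and zinc, had 1290, 1080 and 892 CPM in wild type and 2710, 2950 and 2440 CPM in topp4-1 (1.31 ± 0.13, adjusted p = 8.85e-07). NRAMP4, which exports metals from the vacuole, rose by 0.66 ± 0.1, and MTP1, which loads zinc into it, by 0.48 ± 0.08. In the double mutant 6 of the 9 were lower than in topp4-1, against 21.9% of all genes, and 4 to 7 over the alternative fits.

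The metal-pumping P-type ATPases moved both ways, with 3 of 7 tested genes higher and 2 lower in topp4-1. RAN1, which supplies copper to ethylene receptors, rose by 0.88 ± 0.1 (adjusted p = 4.62e-06), HMA5, a copper exporter, rose by 1.53 ± 0.24, and HMA2, a zinc exporter, had -1.27 ± 0.25 (adjusted p = 0.000485). Of 9 copper chaperone and copper response genes, 2 rose and 1 fell, with 1 to 3 lower over the alternative fits and 2 without wild-type replicate 3. SPL7, the regulator of the copper deficiency response, rose by 0.43 ± 0.09, and CSD2, the chloroplast copper/zinc superoxide dismutase, had -0.64 ± 0.11 (adjusted p = 0.000239). Against topp4-1, the double mutant had 3 of the 7 ATPase genes higher and 3 lower. Of the 9 copper genes 2 were higher and 1 lower in that comparison.

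Reported partners of HIPP proteins and the cytokinin oxidases gave 4 of 8 tested genes higher and 2 lower in topp4-1, with 3 to 4 and 1 to 2 over the alternative fits. ZHD11/ATHB29, the partner of HIPP26, had 2, 8 and 3 counts in wild type and 44, 41 and 52 in topp4-1, and 4, 3 and 0 in the double mutant. Its log2 difference in topp4-1 was 3.26 ± 0.56, and it is 1 of the 4 called higher. Outside topp4-1 it had 9 counts or fewer per library, so it passed the count filter through topp4-1 alone. Against wild type, only a rise in topp4-1 could have been found for this gene. ACBP2, the other HIPP26 partner, rose by 0.76 ± 0.1 (adjusted p = 1.75e-05), from 11.6 to 14.2 CPM in wild type to 21.1 to 21.9 CPM in topp4-1. Of the 8 tested genes of this list, 5 were lower and 0 higher in the double mutant than in topp4-1.

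The cytokinin oxidase CKX4 had 37.2, 39 and 62.4 CPM in wild type and was lower in every mutant library, at 7.59 to 26.3 CPM. Its change was -2.05 ± 0.24 in pp1r3-2 (adjusted p = 5.88e-05). CKX5 had 1.09 ± 0.27 in topp4-1 and -1.12 ± 0.3 in pp1r3-2, both called. Its decrease in pp1r3-2 missed the threshold when wild-type replicate 3 was left out (-0.98, adjusted p = 0.0672) and when pp1r3-2 replicate 1 was (-0.86, adjusted p = 0.0579).

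The 20 tested genes with domain PF00403 that carry no HIPP symbol, a group that includes some of the chaperones and pumps above, had 8 higher and 4 lower in topp4-1, with a median of 0.04. One of them, AT1G29100, was picked after its values were seen, and had no count in wild type and 107, 96 and 187 counts in topp4-1. It had 1, 0 and 8 counts in pp1r3-2, 0, 2 and 0 in topp-7m and 0, 0 and 1 in the double mutant. This gene is 1 of the 8 called higher, and it passed the count filter through topp4-1 alone.

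Markers of other cell types also differed in topp4-1, the genotype in which most HIPP calls were made. The summed level of 4 xylem markers was 12.3 to 19.7 CPM in wild type and 3.7 to 4.12 CPM in topp4-1. It was 6.99 to 10.9 CPM in pp1r3-2 and 10.3 to 13 CPM in the double mutant. Of these markers 3 of the 3 tested fell in topp4-1, where 26.5% of all genes did. In pp1r3-2 2 of the 3 were called lower and in the double mutant 1, against 8.33% and 5.47% of all genes. The summed level of 4 phloem markers was 147 to 178 CPM in wild type and 119 to 131 in topp4-1, with 1 of 4 called lower. That of 3 guard cell markers was 32.5 to 44.2 and 24 to 26.5 CPM, with 2 of 3 called lower. The third, KAT1, was not called, with 7.34 ± 0.932 CPM in wild type and 8.53 ± 1.77 CPM in topp4-1. The 6 flower and meristem markers summed to 3.16 to 5.79 CPM in wild type and 7.95 to 16.6 in topp4-1. Of the 2 tested, 1 rose in topp4-1, PI, from a mean of 0.229 CPM to 5.24 CPM. In pp1r3-2 and in the double mutant 1 of the 2 was also called higher than in wild type. PI had a mean of 1.36 CPM in pp1r3-2 and 1.3 CPM in the double mutant. Double mutant libraries had sums between 3.11 and 14.4 CPM, a range that holds the wild-type one. For topp-7m the sum was 8 to 11.1 CPM, and for pp1r3-2 it was 5.83 to 12.7 CPM. STM had the highest mean of the 6 markers in every genotype, with 5 to 248 counts in double mutant libraries. The part of these differences in the HIPP values was not tested.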

How the data were processed

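Leaf RNA was captured on poly-T beads and made into libraries with the NEBNext Ultra kit, as the protocols in the labels state. The authors deposited a table of whole-number read counts per gene, without normalization. The submitters' processing notes name HISAT2 2.0.5. How reads were counted, with which strand setting and on which build, is not given in the sources used here. Of 32739 nuclear identifiers 32548 matched TAIR10.1, 99.95% with the same start and end, as did all 35 HIPP genes, so sequences were read from that RefSeq genome.

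Replicates of a genotype differed by more than sampling noise (chi-square per gene 5.67 to 26.3) and each counts as 1 library. Genes were kept with edgeR's filterByExpr (minimum count 10, minimum total 15; 20037 genes). TMM factors and a quasi-likelihood fit of all 15 libraries followed (edgeR 4.0.16, R 4.3.3), with a mean per genotype, F tests, Benjamini-Hochberg adjustment over all genes tested and a call at an adjusted p under 0.05. A value written as a ± b is a log2 fold change with its SE, or a level with its SD over 3 libraries. CPM uses TMM-scaled library sizes, and heat map values add 0.5 CPM. The method was tested on simulated data with the same spread for every gene and log2 changes of at least 1 in well-counted genes. That simulation does not cover smaller changes, low counts or unequal spread. Replicate numbers come from the labels, and deviations from the group mean correlated above 0.1 in all 3 same-number pairs only between pp1r3-2 and the double mutant (0.26, 0.22 and 0.45). There the fit with the replicate block called 0 members in each direction, as did the fit without it. Alternatives included DESeq2 1.42.0, other filters and scalings, a replicate block and each library left out. Proteins were translated from the longest annotated coding sequence and aligned with Biopython 1.88; no protein letters are shown.

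The members and gene lists were chosen with earlier results of these data known, and the group of other PF00403 genes and the split by protein length after the data were seen. Members were given with every library's value where they were called with an absolute log2 value of at least 1 against wild type or in the interaction; other members are named where a sentence turns on them. From each other list at most 3 called genes with the smallest adjusted p are named; CKX5, PI and AT1G29100 were added after their values were seen.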

Additional observations from a re-analysis of the deposited data

Results flagged for a closer look

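The effect of topp4-1 differed between the wild-type and the pp1r3-2 background, by the interaction term of the edgeR fit, in 14 HIPP genes. In these 14 the effect of topp4-1 ran from -2.46 to 4.72 on the log2 scale in wild type and from -0.66 to 0.77 in pp1r3-2. The interaction was negative for HIPP22 (-4.62 ± 0.41, SE), HIPP25 (-2.64 ± 0.41), HIPP45 (-2.37 ± 0.51), HIPP11 (-1.8 ± 0.36), HIPP05 (-1.24 ± 0.19), HIPP02 (-1.15 ± 0.21), HIPP14 (-0.84 ± 0.25) and HIPP13 (-0.77 ± 0.19). It was positive for HIPP31 (2.22 ± 0.68), HIPP07 (1.52 ± 0.32), HIPP09 (1.06 ± 0.33), HIPP32 (1.02 ± 0.3), HIPP21 (0.73 ± 0.27) and HIPP34 (0.72 ± 0.14). Groups of 3 libraries were too small for a search for single outlying libraries.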

How the results depend on the processing

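Of 53 called values of HIPP genes, 41 were called in all 21 alternative fits and 49 in all 6 that kept every library or every library of the genotypes compared, and none of the 53 changed sign. The counts that moved by over 1.5 times were small ones. Against wild type, pp1r3-2 had 1 member higher, which became 2 with DESeq2 and with the replicate block, 0 at an absolute log2 value of at least 1 and 1 to 2 with a library left out. Its 2 lower became 1 without the filter, with the replicate block and with the compared genotypes alone, 0 at the log2 limit and 1 to 2 with a library left out. In topp4-1 the 7 lower became 4 at that limit. In topp-7m the 0 lower became 1 with the 1 CPM filter and with the block, 2 with DESeq2 and 0 to 1 with a library left out. The double mutant's 1 higher became 0 at the limit and 0 to 2 with a library left out, and its 2 lower became 1 without the filter, with the block and with the compared genotypes alone, 0 at the limit and 1 to 2 with a library left out. Against topp4-1 its 6 higher became 3 and its 10 lower 6 at the limit. The 6 higher in the interaction ran from 3, without double mutant replicate 1, to 7 with a library left out. The cause was not tested. In 9 of 10 pairs of genotypes at least 1 same-number pair of libraries correlated at 0.1 or below. Among these, topp-7m and the double mutant had 0.39, 0 and 0.51 for numbers 1, 2 and 3. The values for pp1r3-2 and topp-7m were 0.23, 0.03 and 0.32, so numbers 1 and 3 were partly shared there. Over all, 8 of 30 same-number pairs correlated above 0.1 (-0.34 to 0.51) and 7 of 15 libraries correlated best with their own number. Of 85 called values of the list genes, 57 were called in every alternative, an analysis added after the data were seen, and none changed sign. Low counts limit HIPP27, HIPP30 and HIPP31. Wild-type counts were also low for HIPP22 (14 to 30), HIPP25 (21 to 45) and HIPP45 (21 to 25), and HIPP45 had 11 to 15 in the double mutant.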
